A study of Homo sapiens with 6 samples.

Results

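The SPINK genes encode small secreted inhibitors of serine proteases, and 9 of them were taken by name from a table of 62753 genes: SPINK1, SPINK2, SPINK4, SPINK5, SPINK6, SPINK7, SPINK9, SPINK13 and SPINK14. They were selected on the FPKM of SPINK6, which had been seen to be far lower in the PARP1-edited libraries of these data. The difference of the members between the groups is therefore given as a description, without a test. The other row of the family, SPINK8, was listed at 0 in all 6 libraries. The cells are labelled HepG2, which is an established human liver cancer line. The 3 WT libraries come from cells with the WT genotype, and the 3 sgPARP1 libraries from the same line after CRISPR-Cas9 knockout of PARP1, the enzyme that marks proteins with ADP-ribose chains at DNA breaks. No treatment or time point is given for either group, and the labels do not say whether the edited cells are 1 clone or a pool, or whether the libraries of a group are separate cultures. A p-value here thus reflects the scatter among libraries alone, and that scatter may be technical.

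SPINK proteins carry Kazal domains, compact disulfide-bonded folds that present a loop to the active site of a serine protease and block it. SPINK1 is the trypsin inhibitor of pancreatic acinar cells, SPINK2 is an inhibitor of the male germ line, and SPINK4 is made by goblet cells of the gut. SPINK5, whose loss causes Netherton syndrome, SPINK6 and SPINK9 restrain kallikrein-related peptidases in skin, and SPINK7 is an inhibitor of the oesophageal epithelium. Most of the family lies in a cluster on the long arm of chromosome 5.

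Of the 9 members, 7 lie on chromosome 5, and only SPINK2 on chromosome 4 and SPINK4 on chromosome 9 lie elsewhere. In hg38 coordinates of the deposited table, SPINK6 (ENSG00000178172) covers chr5:148202794-148215137 and SPINK13 (ENSG00000214510) covers chr5:148268180-148286255, both on the plus strand. The start of SPINK13 lies 65.4 kb downstream of that of SPINK6. SPINK7 (ENSG00000145879) covers chr5:148312419-148315922 and starts 110 kb downstream. The upstream side holds SPINK14 at 34.2 kb, SPINK5 at 177 kb and SPINK1, on the minus strand, at 371 kb. All 7 are genes of their own in the annotation, and the values are sums over each gene's model rather than over an exon or an isoform.

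The promoter windows of the 3 members with the most reads in WT are shown, so that the start of SPINK6 can be set beside those of its neighbours downstream. Each is the plus strand, 5′ to 3′, from 250 bases before to 50 bases after a RefSeq start, and all 9 members matched a window in RefSeq's GRCh38.p14 annotation. SPINK6 has more than 1 RefSeq start, and the window at chr5:148202528-148202827 is shown. The SPINK13 window is chr5:148268544-148268843 and the SPINK7 window is chr5:148312173-148312472. The SPINK13 window lies inside the deposited span of that gene, downstream of its deposited start at 148268180. Capitals mark CpG dinucleotides and matches to the motifs named after the sequences.
SPINK6: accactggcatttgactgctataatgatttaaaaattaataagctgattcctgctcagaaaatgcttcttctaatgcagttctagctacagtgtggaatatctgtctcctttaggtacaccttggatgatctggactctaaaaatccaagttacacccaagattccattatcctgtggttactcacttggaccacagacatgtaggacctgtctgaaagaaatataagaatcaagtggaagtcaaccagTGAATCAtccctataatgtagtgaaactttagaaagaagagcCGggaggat
SPINK13: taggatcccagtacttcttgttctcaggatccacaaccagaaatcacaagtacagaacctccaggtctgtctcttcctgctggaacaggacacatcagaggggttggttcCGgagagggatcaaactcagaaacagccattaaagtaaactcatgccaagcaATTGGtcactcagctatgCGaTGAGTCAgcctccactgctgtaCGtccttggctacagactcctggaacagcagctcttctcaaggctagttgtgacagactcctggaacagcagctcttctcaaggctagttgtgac
SPINK7: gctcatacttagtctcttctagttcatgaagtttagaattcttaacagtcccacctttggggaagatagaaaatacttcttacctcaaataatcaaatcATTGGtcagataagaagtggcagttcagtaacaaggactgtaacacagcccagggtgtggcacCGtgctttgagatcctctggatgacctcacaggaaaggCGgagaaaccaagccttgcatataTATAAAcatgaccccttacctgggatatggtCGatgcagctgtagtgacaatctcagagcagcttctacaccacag

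All 3 windows hold few CpG dinucleotides. SPINK6 has 1, SPINK13 has 3 and SPINK7 has 3, against a median of 14 over all 35116 windows of 300 bases. The GC content was 39.0% for SPINK6, 49.7% for SPINK13 and 44.0% for SPINK7, against a median of 58.7%. Short motifs were searched on both strands, and the motif matches marked do not overlap each other. The AP-1-type site TGANTCA is in the SPINK6 and the SPINK13 window and in 7.71% of all windows. The TATA-box letters TATAAA are in the SPINK7 window and in 11.5% of all windows. The CCAAT box, read as ATTGG on the strand shown, is in the SPINK13 and SPINK7 windows and in 34.6% of all windows. The window of the other SPINK6 start, chr5:148202792-148203091, which is not printed, has 2 matches to the CCAAT box and none to the AP-1-type site. The GC-box letters GGGCGG are in none of the 3 and in 45.0% of all windows. These matches describe letters only.

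Levels are in FPKM, which corrects the reads of a gene for its length and for the depth of the library. Multiplied by length, they came to 14842498 to 17305129 whole reads per library. PARP1, the targeted gene, was at 31.8, 31.5 and 31.5 FPKM in WT and at 4.31, 4.23 and 4.39 FPKM in sgPARP1. It fell by 86.4%, and every library matched its group label. Genes whose mean across all 6 libraries reached 0.5 FPKM were tested with limma on log2(FPKM + 1), and an adjusted p under 0.05 counts as called. Of 13167 genes tested, 1048 were called, which is 7.96%, with 4.44% lower and 3.52% higher in sgPARP1. Markers that define hepatocytes were nearly absent: the albumin gene ALB was listed at 0 in all libraries, as were TTR, APOB, AFP and SERPINA1, and the summed level of the 14 markers listed did not exceed 0.357 FPKM in a library. The cells are therefore called by their label only. An exact 0 in this table need not mean no RNA, since RPS9, a ribosomal protein gene that cells use throughout, is also listed at 0.

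SPINK6 was detected clearly in WT and at 1 or 2 reads in sgPARP1. WT libraries held 17.8, 11.8 and 15.6 FPKM, from 186, 124 and 142 reads. The sgPARP1 libraries held 0.211, 0.214 and 0.0958 FPKM, from 2, 2 and 1 reads. Every WT library was far above every sgPARP1 library, and the groups did not overlap. The mean was 15.1 ± 3.0 FPKM (SD, n = 3) in WT and 0.174 ± 0.0674 FPKM (SD, n = 3) in sgPARP1, so the level decreased by 98.8%.

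Summed over the libraries, SPINK6 had 452 reads in WT and 5 in sgPARP1. Per read recovered over all genes, the WT rate was 88.4 times the sgPARP1 rate, with an exact 95% interval of 37.6 to 273 that covers counting error only. The log2 difference depends on the pseudocount because so few reads remain. It was −3.76 (SE 0.138) with a pseudocount of 1, −4.52 (SE 0.155) with 0.5 and −5.81 (SE 0.231) with 0.1. With voom on recovered reads it was −6.12, with a wider SE of 0.675. In bulk RNA, fewer cells that express a gene and less of its RNA per cell cannot be told apart.

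SPINK13 was the most abundant member in both groups and was lower in sgPARP1, but remained well detected. WT libraries held 26.9, 29.5 and 30.6 FPKM, from 546, 599 and 542 reads. The sgPARP1 libraries held 12.6, 13.3 and 13.1 FPKM, from 232, 240 and 266 reads. Again every WT library was above every sgPARP1 library. The mean fell from 29.0 ± 1.90 to 13.0 ± 0.342 FPKM (SD, n = 3 each), and so decreased by 55.2%. The WT read rate was 2.23 times that of sgPARP1 with an exact counting interval of 2.05 to 2.44. The log2 difference was −1.10 (SE 0.055), and with a pseudocount of 0.1 it was −1.15.

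**Figure D1:**
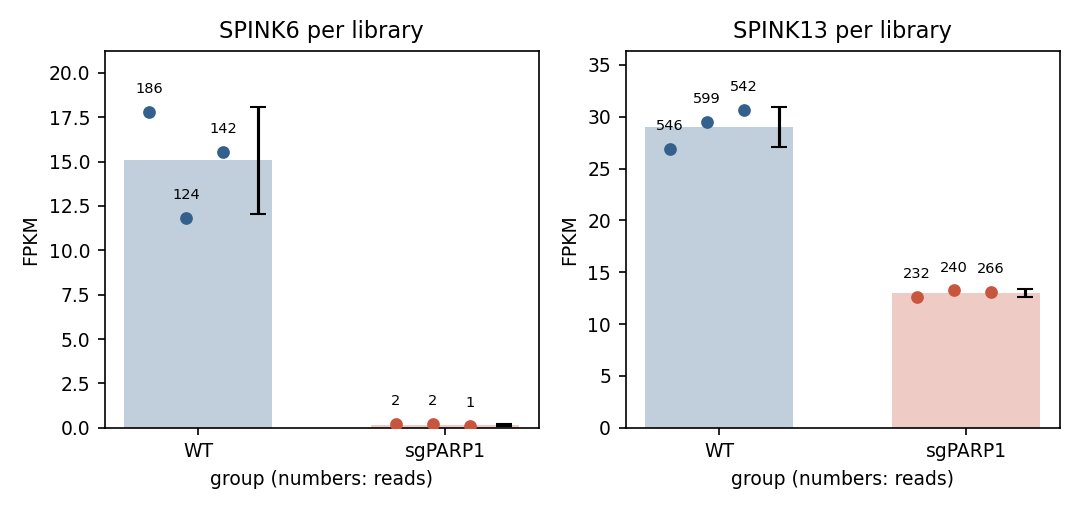
FPKM of SPINK6 (left) and SPINK13 (right) in each library; bars are group means, the offset error bar is the SD over 3 libraries, and the number above a point is the reads recovered for it. SPINK6 goes from 124 to 186 reads in WT to 1 or 2 reads in sgPARP1, while SPINK13 stays at 232 or more.

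The SPINK13 value carries a counting limit. The antisense gene FBXO38-DT overlaps 31.6% of its annotated exonic bases in the GENCODE release 29 annotation, 371 of 1174. Whether counting used strand is not given in the sources used here, so reads of the overlapping part cannot be assigned to one strand. FBXO38-DT itself was at 1.63 FPKM in WT and 0.947 FPKM in sgPARP1, over a length of 15182 bases against 1175 for SPINK13. In reads it had 1226 in WT and 693 in sgPARP1, against 1687 and 738 for SPINK13. The part of FBXO38-DT in the SPINK13 values was not tested. For SPINK6 the same search gave no overlapping gene in GENCODE 29, and none of its 730 stretches of 50 bases recurs in another gene's transcripts. In the deposited coordinates, however, the span of FBXO38-DT covers SPINK6 on the opposite strand.

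The ratio of SPINK6 to SPINK13 can be read within each library. SPINK6 stood at 0.661, 0.401 and 0.508 of the SPINK13 FPKM in the WT libraries, and at 0.0167, 0.0162 and 0.00729 of it in the sgPARP1 libraries. The range of that ratio in one group did not overlap that in the other. Of the summed FPKM of all 9 members, SPINK6 made up 39.4%, 28.4% and 33.1% in WT and 1.63%, 1.55% and 0.701% in sgPARP1. The total of the members was 41.7 to 47.0 FPKM in WT and 12.9 to 13.8 FPKM in sgPARP1.

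SPINK6 varied more between WT libraries than SPINK13 did. Its coefficient of variation in WT was 19.9%, against 8.15% from counting alone and a median of 9.59% over 1500 tested genes with a similar number of reads. SPINK13 had 6.56% in WT, against 4.22% from counting alone and a median of 5.89% over 2574 genes of similar read number. In sgPARP1 SPINK13 had 2.63%, below the 6.38% from counting alone and a median of 7.96% over 1947 such genes. The WT library highest for SPINK6, replicate 1, was the lowest of the WT libraries for SPINK13.

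SPINK7, the inhibitor of the oesophageal epithelium, was low in both groups, at 0.300, 0.187 and 0.473 FPKM in WT and 0.0413, 0.252 and 0.225 FPKM in sgPARP1. These values rest on 24 and 13 reads in all, and the groups overlapped. The WT rate was 1.80 times that of sgPARP1, with an exact counting interval of 0.883 to 3.86, so a difference was not detectable at this depth.

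SPINK5, the multi-domain inhibitor lost in Netherton syndrome, was at 0.0364, 0.109 and 0.0278 FPKM in WT and 0.0401, 0.0543 and 0.121 FPKM in sgPARP1. It had 14 reads in WT and 17 in sgPARP1, and the interval of its rate ratio ran from 0.367 to 1.74. SPINK4 had 1, 0 and 3 reads in WT and none in sgPARP1. SPINK1 had 1, 1 and 0 reads in WT and none in sgPARP1. SPINK2 had 1 read, in the third sgPARP1 library, and SPINK9 and SPINK14 were listed at 0 in all 6 libraries.

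In WT the members ranked SPINK13, SPINK6, SPINK7, SPINK4, SPINK5 and SPINK1 by mean FPKM, with SPINK2, SPINK9 and SPINK14 at 0. SPINK13 over SPINK6 and SPINK6 over SPINK7 did not overlap between WT libraries, whereas SPINK7 and SPINK4 did, and from SPINK4 down the levels rest on a few reads. Of the 9, 2 members passed the filter on low values, SPINK6 and SPINK13, and the other 7 did not, of which 5 had a read in some library.

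**Figure D2:**
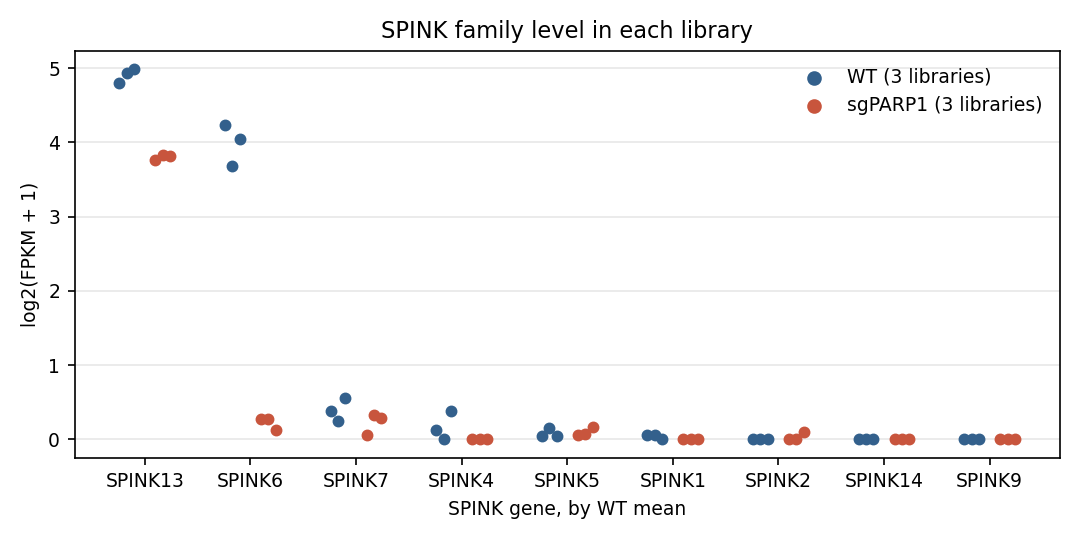
Level of each of the 9 SPINK members as log2(FPKM + 1), 1 point per library, in blue for WT and red for sgPARP1; a gene listed at 0 lies at 0. SPINK6 and SPINK13 stand apart from the other members in WT, and SPINK6 falls to the level of the low members in sgPARP1.

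Within 1 Mb of SPINK6 the table has 34 genes that are not members, and 17 of them had no read in any library. Of the rest, 4 passed the filter, and 1 of these was called lower, against 4.44% of all genes tested. A count of 1 gene says little beside that share. By limma 0 were called higher. At an unadjusted p under 0.05 the counts were 4 lower and 0 higher, where 12.3% of all genes tested were lower and 12.1% higher. With voom on recovered reads they were 1 lower and 0 higher, where 6.95% of all genes were lower and 4.91% higher. The median log2 difference of the 4 was −0.33, against 0.00 over all genes, with a range of −0.43 to −0.11. Within 5 Mb, 46 other genes were tested, 1 was called lower and 4 higher, 10.9% in all, and their median was 0.01. Over chromosome 5, 20 of 636 genes were lower and 27 higher, 7.39% in all, with a median of 0.00.

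FBXO38-DT (ENSG00000247199) was the called neighbour. This long noncoding RNA runs on the minus strand. Its span covers SPINK14, SPINK6, SPINK13, SPINK7 and SPINK9 whole and SPINK5 in part. It was at 1.36, 1.83 and 1.70 FPKM in WT and at 0.951, 0.988 and 0.902 FPKM in sgPARP1, so the groups did not overlap. It dropped by 41.9%, with a log2 difference of −0.43 (SE 0.092, adjusted p = 0.0375 by limma). The call ended without a filter on low values (adjusted p = 0.120 by limma), and without any 1 of WT replicate 2, WT replicate 3 or the 3 sgPARP1 replicates (adjusted p from 0.0833 to 0.121 by limma). The counting limit given for SPINK13 holds here too, since the exons of the 2 genes share 371 bases. What part SPINK13 reads have in the FBXO38-DT values was not tested.

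MARCOL lies between SPINK6 and SPINK13 and was at 11.0, 11.1 and 12.8 FPKM in WT and 8.93, 10.4 and 9.40 FPKM in sgPARP1. Its groups did not overlap, but it did not pass the test (log2 difference −0.25, SE 0.078, adjusted p = 0.103 by limma). FBXO38, an F-box gene of the other side of the cluster, differed by −0.11 (SE 0.044, adjusted p = 0.176 by limma), with 6.32, 6.05 and 6.26 FPKM in WT and 5.77, 5.56 and 5.66 FPKM in sgPARP1.

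A pair of genes below the filter, picked after their values were seen, had values in opposite directions. DPYSL3, of the collapsin response mediator family, was at 0.815, 0.580 and 0.583 FPKM in WT and 0.303, 0.172 and 0.202 FPKM in sgPARP1. C5orf46 was at 0.428, 0.142 and 0.0545 FPKM in WT and 0.944, 0.639 and 0.762 FPKM in sgPARP1. Neither was tested with the filter, and in a fit without it their adjusted p was 0.0815 and 0.129 by limma.

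**Figure D3:**
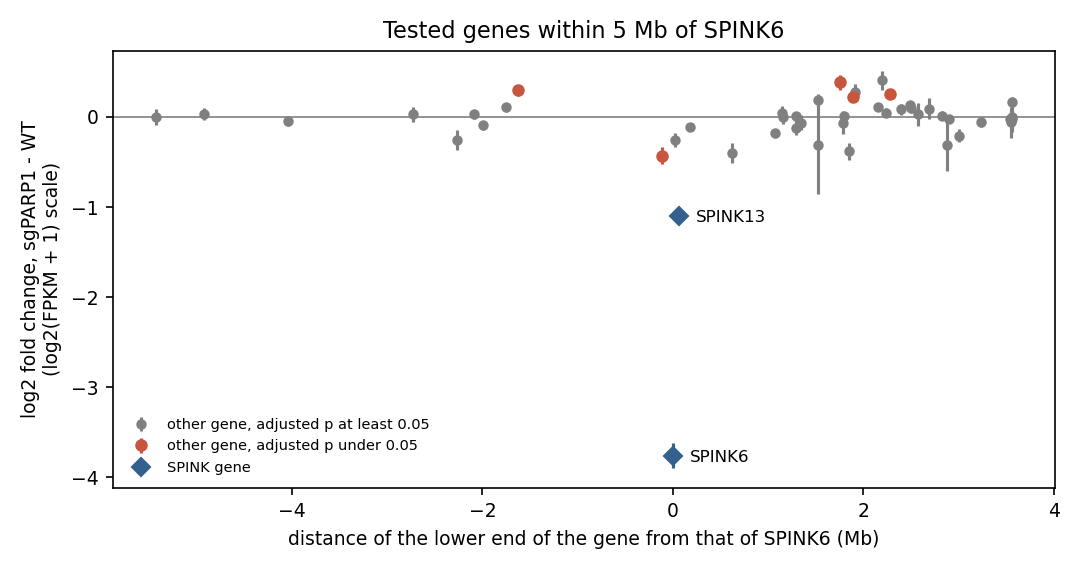
Log2 difference (sgPARP1 minus WT, on log2(FPKM + 1)) of tested genes within 5 Mb of SPINK6, by distance in Mb between the lower ends of the genes, with SE bars; diamonds are SPINK genes and red points are other genes called. SPINK6 and SPINK13 lie lowest, and of the 5 red points FBXO38-DT, next to them, is below 0 and 4 are above.

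SPINK inhibitors act on secreted and membrane-bound serine proteases, and the genes of those proteases, their receptors and other inhibitor families were counted next. The kallikrein-related peptidases, the best known targets of SPINK5, SPINK6 and SPINK9, were at or near 0: 12 of 15 had no read in any library, and no library's sum exceeded 0.307 FPKM. KLK5 and KLK7, the skin kallikreins that shed surface cells, were at 0, and KLK14 had 10 reads in WT and 4 in sgPARP1. Of 14 digestive and acrosomal proteases, 10 were at 0 and none passed the filter.

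Membrane-anchored serine proteases numbered 21, of which 5 were tested. By limma 2 were lower and none was higher, against 4 lower and 1 higher at an unadjusted p under 0.05, and 3 lower and none higher with voom on recovered reads. The shares of all genes tested were 4.44% lower and 3.52% higher by limma. They were 12.3% lower and 12.1% higher at the unadjusted p, and 6.95% lower and 4.91% higher with voom. PRSS8, prostasin, was at 4.71, 4.78 and 4.35 FPKM in WT and 3.37, 2.68 and 3.38 FPKM in sgPARP1 (log2 difference −0.44, adjusted p = 0.0247 by limma). The PRSS8 call ended without a filter (adjusted p = 0.0725 by limma) and without any 1 of the 3 WT replicates or sgPARP1 replicate 1 (adjusted p from 0.0575 to 0.0912 by limma). PRSS23, which is secreted although its list is of anchored proteases, was at 14.9, 14.5 and 13.6 FPKM in WT and 10.5, 10.5 and 11.6 FPKM in sgPARP1 (log2 difference −0.37, adjusted p = 0.0114 by limma). Its call ended without WT replicate 2 (adjusted p = 0.0560 by limma) and without sgPARP1 replicate 1 (adjusted p = 0.0555 by limma). ST14, the matriptase gene, had a mean of 0.298 FPKM and was not tested.

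The protease-activated receptors are G protein-coupled receptors that serine proteases switch on by cutting them. F2R, PAR1, was the one tested, at 2.03 ± 0.317 FPKM in WT and 1.17 ± 0.275 FPKM in sgPARP1 (SD, n = 3 each), and did not pass (log2 difference −0.48, adjusted p = 0.0598 by limma), although with voom on recovered reads it did (adjusted p = 0.0155). F2RL1, PAR2, named after its values were seen, was below the filter. It was at 0.731, 0.533 and 0.363 FPKM in WT and 0.131, 0.0222 and 0.218 FPKM in sgPARP1, from 80 and 18 reads in all, and a fit without the filter gave it an adjusted p of 0.137 by limma.

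Genes outside the family that carry a Kazal-type domain numbered 23, and of 12 tested 2 were higher, 1 was lower and 9 did not pass, with a median of −0.06. Of all genes tested, 3.52% were higher and 4.44% lower. FSTL4, a secreted follistatin-like protein, was at 3.44, 2.86 and 2.87 FPKM in WT and 1.32, 1.28 and 1.25 FPKM in sgPARP1 (log2 difference −0.83, SE 0.077, adjusted p = 0.00193 by limma). HTRA3, itself a secreted serine protease, was at 4.05, 3.42 and 3.48 FPKM in WT and 8.05, 6.98 and 8.32 FPKM in sgPARP1, which is 2.13-fold higher (adjusted p = 0.00171 by limma). FSTL1, a secreted glycoprotein, rose from 45.3, 48.6 and 48.2 to 59.8, 61.4 and 56.2 FPKM (adjusted p = 0.0119 by limma), a call that ended without sgPARP1 replicate 1 (adjusted p = 0.0592 by limma).

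Kunitz and WAP inhibitors, other small serine protease inhibitors, numbered 19 with 7 tested, and the median difference of the tested was 0.02. By limma 1 was lower and none was higher, against 3 lower and none higher at an unadjusted p under 0.05 and 2 lower and none higher with voom. Of all genes tested, 4.44% were lower and 3.52% higher by limma. Those shares were 12.3% and 12.1% at the unadjusted p, and 6.95% and 4.91% with voom. APP, whose longer forms hold a Kunitz domain, fell from 149, 145 and 142 to 121, 120 and 121 FPKM (log2 difference −0.26, adjusted p = 0.00464 by limma). APLP2, its relative, was at 66.3 FPKM in WT and 67.5 FPKM in sgPARP1 (adjusted p = 0.682 by limma). Clade B serpins are mostly intracellular, and not all of them inhibit proteases. Of 13, 5 were tested and 1 was lower, with the same count at an unadjusted p under 0.05 and with voom. That count stands beside the same shares of all genes tested. SERPINB5, maspin, fell from 5.94, 6.93 and 6.32 to 4.49, 4.18 and 4.51 FPKM (adjusted p = 0.00911 by limma). SERPINB1, an elastase inhibitor, was at 28.6 FPKM in WT and 29.0 FPKM in sgPARP1 (adjusted p = 0.785 by limma).

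Over all 109 genes of these lists, 30 were tested, 5 were lower and 2 higher, 23.3% called against 7.96% of all genes tested, and their median was −0.09. With 7 genes, that count is small, and nothing is read as particular to the lists.

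**Figure D4:**
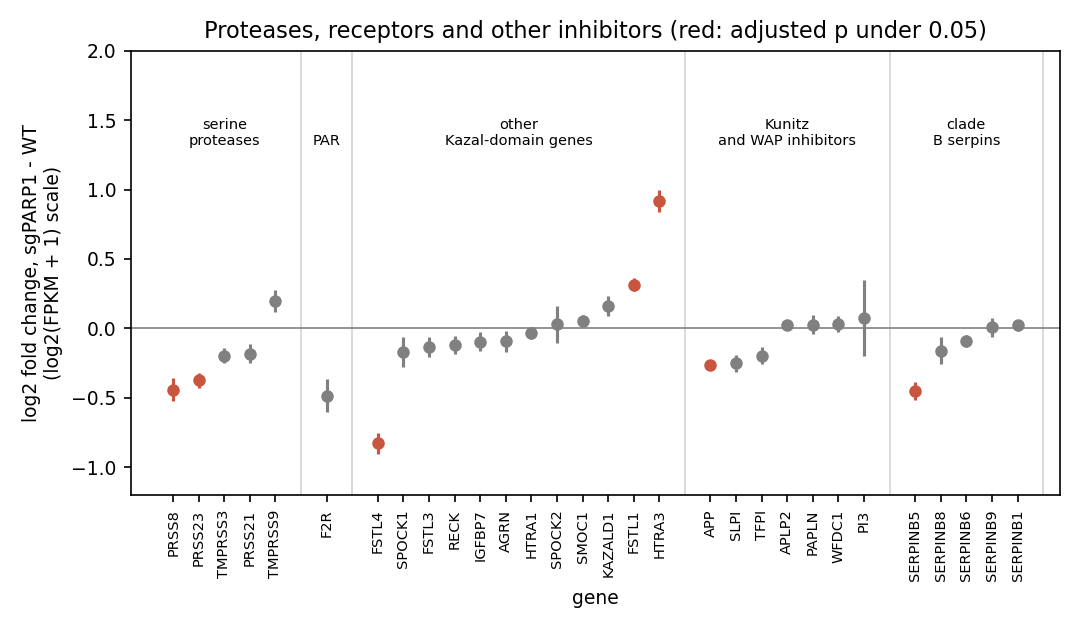
Log2 difference (sgPARP1 minus WT) of the tested genes of 5 lists on the log2(FPKM + 1) scale, with SE bars and called genes in red; PAR stands for protease-activated receptors. The red points lie on both sides of 0, with FSTL4 lowest and HTRA3 highest.

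Markers of tissues known for SPINK genes were examined beside these values. Keratinocyte markers numbered 24, with 14 at 0 in all libraries and 2 tested, and their summed level was 214 to 239 FPKM in WT and 241 to 280 FPKM in sgPARP1. Most of that sum was KRT17, a keratin of stressed and appendage epithelium that many epithelial lines also make, which did not pass by limma (200 against 237 FPKM, adjusted p = 0.109) but was called higher with voom on recovered reads (adjusted p = 0.0271). The other tested marker, KRT10, was at 24.9 FPKM in WT and 25.1 FPKM in sgPARP1 (adjusted p = 0.936 by limma). KRT5, KRT14 and TP63, which define basal keratinocytes, had means of 0.00791, 0.0722 and 0.0147 FPKM, and IVL was at 0. Of 13 pancreatic acinar markers 9 were at 0, and of 10 goblet cell markers 7 were at 0; no library's sum exceeded 0.476 FPKM for the acinar or 0.219 FPKM for the goblet list. What part, if any, other cell types have in the SPINK6 level was not tested.

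The genes most like SPINK6 across the 6 libraries were found over 10429 protein-coding genes by Pearson's r on log2(FPKM + 1). They were SLFN11 at 0.999, CAPN2 at 0.998, LIF at 0.997, PDE9A at 0.997 and TNS4 at 0.996. SPINK13 ranked 76 with an r of 0.986. The group difference sets most of each r, so these are descriptions with no p. SLFN11 comes closest in shape: it was at 1.46, 1.22 and 1.48 FPKM in WT and 0.0107, 0.0325 and 0.0194 FPKM in sgPARP1, from 126 to 151 reads in WT and 1 to 3 in sgPARP1. None of the 5 genes lies on chromosome 5.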

How the data were processed

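The RNA-seq libraries, 3 WT and 3 sgPARP1, were grouped by the titles in the labels. The authors deposited FPKM per gene with gene lengths for 62753 genes. Genome builds hg38, GRCm38 and mm10 are named with no role in the submitters' processing notes; of 58260 gene IDs shared with GENCODE 29, 99.9% overlap their gene there, so coordinates are human hg38. Not given in the sources used here: aligner, counter and use of strand. FPKM times length gave whole reads within 0.02 for all values up to 200 reads.

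Genes averaging 0.5 FPKM or more were tested on log2(FPKM + 1) with limma 3.58.1 in R 4.3.3 with a trend, adjusted by Benjamini-Hochberg over all genes tested at 0.05; the test was tested on simulated data. Alternative settings covered no filter, pseudocounts of 0.1 and 0.5, a mean of at least 5 FPKM, a rescaling of FPKM to TPM, voom on recovered reads, a replicate block and each library left out. Named were all members, all tested genes within 1 Mb of SPINK6, up to 4 genes per list with the largest called change (filled to 2 with the most abundant), the 5 genes most like SPINK6, and PARP1. Of the genes this rule takes, 1 is not reported here. DPYSL3, C5orf46, F2RL1, KLK5, KLK7, KLK14 and ST14 were named after their values were seen. The members and lists were chosen with earlier results of these data known. Intervals cover counting error only.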

Additional observations from a re-analysis of the deposited data

How the results depend on the processing

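Directions of the 14 called genes named outside the family held in all 176 alternative values, of which 151 kept the call and 25 lost it, 8 of these for PDE9A (adjusted p from 0.0519 to 0.0761 by limma). Most of these genes were named because of their differences in the same libraries, so the kept directions are not independent support. The count of called genes, 1048, fell to 587 with no filter and 550 with the replicate block, and ran from 412 to 652 with each library left out; voom on recovered reads gave 1561. Within 1 Mb of SPINK6 the count of called neighbours, 1, became 0 with no filter and 0 with the replicate block. It ran from 0 to 1 with each library left out. With a mean of at least 5 FPKM it was 0, but there FBXO38-DT, with a mean of 1.29 FPKM, was not tested. With the block, FBXO38-DT (adjusted p = 0.0835 by limma), PRSS8 (0.0685), PRSS23 (0.0536) and PDE9A (0.0757) were not called. The list count of 7 ran from 4 to 8 with each library left out, and was 5 with the replicate block and 10 with voom. The ratio of SPINK6 means, 86.7, ran from 70.9 to 98.2 with each library left out and was 86.4 in TPM; that of SPINK13 ran from 2.17 to 2.31, alternatives chosen after seeing the data. Replicates with the same number did not deviate together (correlations 0.0408, 0.0813 and −0.0262), and the main test does not pair them. The labels do not say whether libraries with the same number were made together, and these correlations cannot decide it. Members with a few reads are limited by depth, and the cause of the lost calls was not tested.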
